A study of Mus musculus with 9 samples.

Results

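Synaptotagmins are membrane proteins with a pair of C2 domains. Here 10 of their genes were followed in ribosome-associated RNA of parvalbumin-expressing inhibitory neurons (PV INs). The members were listed by symbol as Syt1, Syt2, Syt3, Syt4, Syt5, Syt6, Syt7, Syt9, Syt10 and Syt11. That list was made with earlier results of these data known. All 10 were found among the 37620 genes of the count files and all 10 were among the 15069 genes tested. They were read as the fast sensors (Syt1, Syt2 and Syt9), the other calcium-binding members (Syt3, Syt5, Syt6, Syt7 and Syt10) and the members whose first C2 domain lacks a calcium ligand (Syt4 and Syt11). The question was how the fast sensors compare with the others within PV INs and between both conditions of the screen.

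The mice were PV-Cre:Rpl22HA f/f animals, in which cells that express Cre from the Pvalb locus carry an HA tag on the ribosomal protein RPL22. At 2 months of age a lentivirus was injected into the dentate gyrus (DG). It expressed either a non-target RNA (shNT, 5 samples) or an shRNA against Ablim3 (shRNA, 4 samples), a regulator of the mossy fiber contacts that DG granule cells make on PV INs. CA2/CA3 was harvested 2 weeks later, tissue of 6 male and female mice was pooled for each sample, and anti-HA immunoprecipitation took the tagged ribosomes with their RNA. All samples of both groups carry the Cre and the tagged allele, and tissue before the immunoprecipitation was not analysed here. The values therefore hold the RNA of PV IN ribosomes and any RNA of other cells that came along, and fewer cells of a type cannot be told apart from less RNA per cell.

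Calcium that enters a terminal through its channels binds acidic residues in loops of the C2 domains, and the domains then act on membrane and on SNARE proteins to drive vesicle fusion. Syt1, Syt2 and Syt9 are the sensors of fast synchronous release, and Syt2 is the isoform known from the fast terminals of hindbrain neurons and of PV basket cells. Syt7 is a slower sensor of high affinity, and Syt4 and Syt11 carry a serine in place of a calcium-binding aspartate.

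The loop of the first C2 domain sets Syt4 and Syt11 apart from the calcium-binding members, fast or not, and its 27 coding bases are given for 9 genes from the GENCODE annotation of mm9, read 5′ to 3′ on the coding strand. Capitals mark the codons of the positions that hold the calcium ligands in Syt1, where GAT and GAC both encode aspartate. Each window lies within 1 coding exon.
Syt1: GATtttGACcgcttctccaagcacGAC
Syt2: GACtttGACcgcttctctaagcatGAC
Syt9: GACtttGACaggttctctcgccatGAC
Syt3: GACttcGACcgcttctcgcggcatGAT
Syt5: GACtttGATcggttctcccgcaacGAT
Syt6: GACtttGACcgcttctcccgccatGAC
Syt7: GATtatGACcgtttcagccgcaatGAC
Syt10: GATtttGACagattttccagacacGAC
Syt11: AGCtttGATcgattctctcgggatGAC

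The fast sensors and the other calcium-binding members had an aspartate codon at all 3 marked positions. In Syt11 the leading codon was AGC, a serine codon, and 2 of 3 were aspartate codons. Syt4 also had 2 of 3. Within the window 24 of 27 bases of Syt2 were identical to Syt1, against 19 for Syt9, 22 for Syt6 and Syt10, 20 for Syt3, 19 for Syt5, 18 for Syt7 and 17 for Syt11. The windows lie at chr10:108064402-108064428 on the minus strand (Syt1), chr1:136641009-136641035 on the plus strand (Syt2), chr7:114580216-114580242 on the plus strand (Syt9), chr7:51648818-51648844 on the plus strand (Syt3) and chr7:4493886-4493912 on the minus strand (Syt5). Those of Syt6 (chr3:103391598-103391624) and Syt7 (chr19:10517368-10517394) are on the plus strand, and those of Syt10 (chr15:89644587-89644613) and Syt11 (chr3:88565741-88565767) are on the minus strand.

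Reads counted on genes ran from 19680352 to 34578837 per sample in shNT (median 28461309) and from 18281719 to 30421093 in shRNA (median 24896660). Ablim3, the target of the shRNA in DG, measured 12.1 to 22.6 CPM (counts scaled to library size, normalized by TMM) in shNT and 13.7 to 21.7 CPM in shRNA, which is no check of the labels because PV INs were not the cells aimed at. Pvalb, which defines the tagged cells, measured 678 to 1375 CPM in shNT and 310.0 to 705 CPM in shRNA, and Gad1, which makes GABA, averaged 3030.3 and 2341 CPM. Slc17a7, the vesicular glutamate transporter of pyramidal neurons, was also present, at 140.4 to 336 CPM in shNT and 378 to 516 CPM in shRNA. The share of uniquely aligned reads outside annotated exons was 18.6% to 27.2% in shNT replicate 2, shRNA replicate 1 and shRNA replicate 4 and 9.76% to 12.5% in the other 6 samples. This split of samples touches several results below.

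Syt1, the main fast sensor of forebrain neurons, had the highest CPM of the 10, a measure that is not scaled to exonic length. It measured 1727, 1108, 1948, 1660.5 and 1672 CPM in shNT (replicates in order) and 1311, 1927, 1775 and 998 CPM in shRNA. The groups overlapped, and the lowest sample of each was one with many reads outside exons. The shNT mean of 1623 ± 310.5 CPM (SD, n = 5) stood against 1503 ± 426 CPM (SD, n = 4) in shRNA, for a log2 fold change of -0.11 (SE 0.24, edgeR quasi-likelihood FDR 0.757). The gene (ENSMUSG00000035864) spans chromosome 10 from 107934706 to 108448038 on the minus strand.

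Syt2 is the fast sensor of PV basket cell terminals. Its levels were 429, 219, 437, 338 and 372 CPM in shNT and 244, 374, 385 and 170.1 CPM in shRNA. shNT replicate 2, shRNA replicate 1 and shRNA replicate 4 lay below 250 CPM and the other 6 samples lay above 330 CPM, so the samples divided across the conditions and not between them. The means of 359 ± 88.5 CPM (SD, n = 5) and 294 ± 104 CPM (SD, n = 4) differed by a log2 fold change of -0.29 (SE 0.27, FDR 0.459). Syt2 (ENSMUSG00000026452) is on chromosome 1 from 136605877 to 136649726 on the plus strand.

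Syt9, the fast sensor of striatal and limbic neurons, was near the floor of the test. It measured 0.676, 1.79, 1.58, 0.353 and 0.878 CPM in shNT and 2.69, 3.06, 1.64 and 3.61 CPM in shRNA, from 7 to 46 reads in the former and 31 to 86 in the latter. Of the shRNA samples 3 lay above every shNT sample and replicate 3 lay within the shNT range. On average shNT held 1.05 ± 0.609 CPM (SD, n = 5) against 2.75 ± 0.832 CPM (SD, n = 4) in shRNA, a 2.60-fold difference (log2 1.38, SE 0.44) with an FDR of 0.0723 that did not pass. Syt9 (ENSMUSG00000062542) runs from 114514242 to 114692170 on the plus strand of chromosome 7.

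Among the other calcium-binding members Syt3 and Syt7 were abundant. Syt3, a high-affinity member, measured 198, 157, 235, 218 and 210.3 CPM in shNT and 174, 203, 199.8 and 108 CPM in shRNA. The groups overlapped, and the 3 lowest samples were again the 3 with many reads outside exons. The log2 fold change was -0.25 (SE 0.20, FDR 0.386).

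Syt7, the sensor of asynchronous release and facilitation, was the steadiest gene of the group in shNT. Its levels there were 147, 147, 154, 146 and 152 CPM, a coefficient of variation of 2.36%. In shRNA it measured 146, 144, 138 and 97.3 CPM, and the coefficient of variation was 17.5%, set by replicate 4. The shNT mean was 149 ± 3.52 CPM (SD, n = 5) and the shRNA mean 131 ± 23.0 CPM (SD, n = 4). The log2 fold change was -0.18 (SE 0.14, FDR 0.376). The unadjusted two-sided exact permutation p was 0.0159 for Syt7, and also for Syt5 and for Syt6. The same permutation test gave p = 0.0317 for Syt10, 0.0397 for Syt9 and 0.222 to 0.595 for Syt1, Syt2, Syt3, Syt4 and Syt11. Without shRNA replicate 4 the log2 fold change of Syt7 was -0.08. The groups touched at 1 sample each under TMM and did not overlap with the size factors of DESeq2, with shRNA lower. Exons of other genes overlap 5.51% of the exonic bases of Syt7 (Gm17289), 14.7% of those of Syt4 (Gm16871) and 8.73% of those of Syt6 (Atg4a-ps), and reads were counted without regard to strand.

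Syt5, found on dense-core vesicles, was of middle abundance and separated the groups. It measured 19.2, 25.7, 22.9, 16.7 and 23.7 CPM in shNT and 30.1, 27.8, 29.1 and 37.8 CPM in shRNA, from 332 to 905 reads. The lowest shRNA sample was above the highest shNT sample. The means of 21.6 ± 3.60 CPM (SD, n = 5) and 31.2 ± 4.53 CPM (SD, n = 4) gave a 1.44-fold difference (log2 0.53, SE 0.16, FDR 0.0683), which passed neither the FDR nor the 1.5-fold minimum. When samples were scaled by library size only, the highest shNT sample was at 28.4 CPM and the lowest shRNA sample at 26.5 CPM, and the groups of Syt5 overlapped.

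Syt6 and Syt10, which like Syt3 form disulfide-linked dimers, had means under 5 CPM, as Syt9 did. Syt6 measured 2.42, 1.61, 1.82, 0.757 and 0.784 CPM in shNT and 3.22, 3.06, 4.64 and 2.89 CPM in shRNA, from 15 to 68 and 64 to 97 reads. Its groups did not overlap under any of the 3 scalings (TMM, library size only and DESeq2 size factors). The 2.32-fold difference (log2 1.22, SE 0.37) had an FDR of 0.0682.

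Syt10, a sensor of growth factor release in olfactory bulb neurons, measured 3.27, 1.93, 1.51, 0.706 and 0.910 CPM in shNT and 3.59, 2.59, 4.11 and 7.35 CPM in shRNA. These came from 14 to 92 reads in shNT and 73 to 163 in shRNA. shNT replicate 1 lay within the shRNA range, and shRNA replicate 4 stood well above all others. The difference was 2.63-fold (log2 1.40, SE 0.45, FDR 0.0736), and without shRNA replicate 4 the log2 value was 1.02.

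Syt4 and Syt11, the members without a full set of ligands, were both abundant. Syt4, a protein of dense-core vesicles, measured 171, 144, 202, 219.6 and 260.1 CPM in shNT and 158, 195, 183 and 120.5 CPM in shRNA. The groups overlapped, with a log2 fold change of -0.28 (SE 0.20, FDR 0.329). Syt11, which restrains endocytosis, measured 1004, 724, 1056, 1090.3 and 1093 CPM in shNT and 753, 1005, 945 and 768 CPM in shRNA. Its groups overlapped as well (log2 fold change -0.19, SE 0.18, FDR 0.460). The low samples of both genes were those that were low in Syt1.

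The other genes lie on chromosome 7 from 51639472 to 51655557 on the plus strand (Syt3, ENSMUSG00000030731) and from 4491370 to 4498169 on the minus strand (Syt5, ENSMUSG00000004961), on chromosome 3 from 103379154 to 103449490 on the plus strand (Syt6, ENSMUSG00000027849) and from 88548622 to 88636219 on the minus strand (Syt11, ENSMUSG00000068923), on chromosome 19 from 10463580 to 10527671 on the plus strand (Syt7, ENSMUSG00000024743), on chromosome 15 from 89612824 to 89672291 on the minus strand (Syt10, ENSMUSG00000063260) and on chromosome 18 from 31597462 to 31607069 on the minus strand (Syt4, ENSMUSG00000024261).

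**Figure D1:**
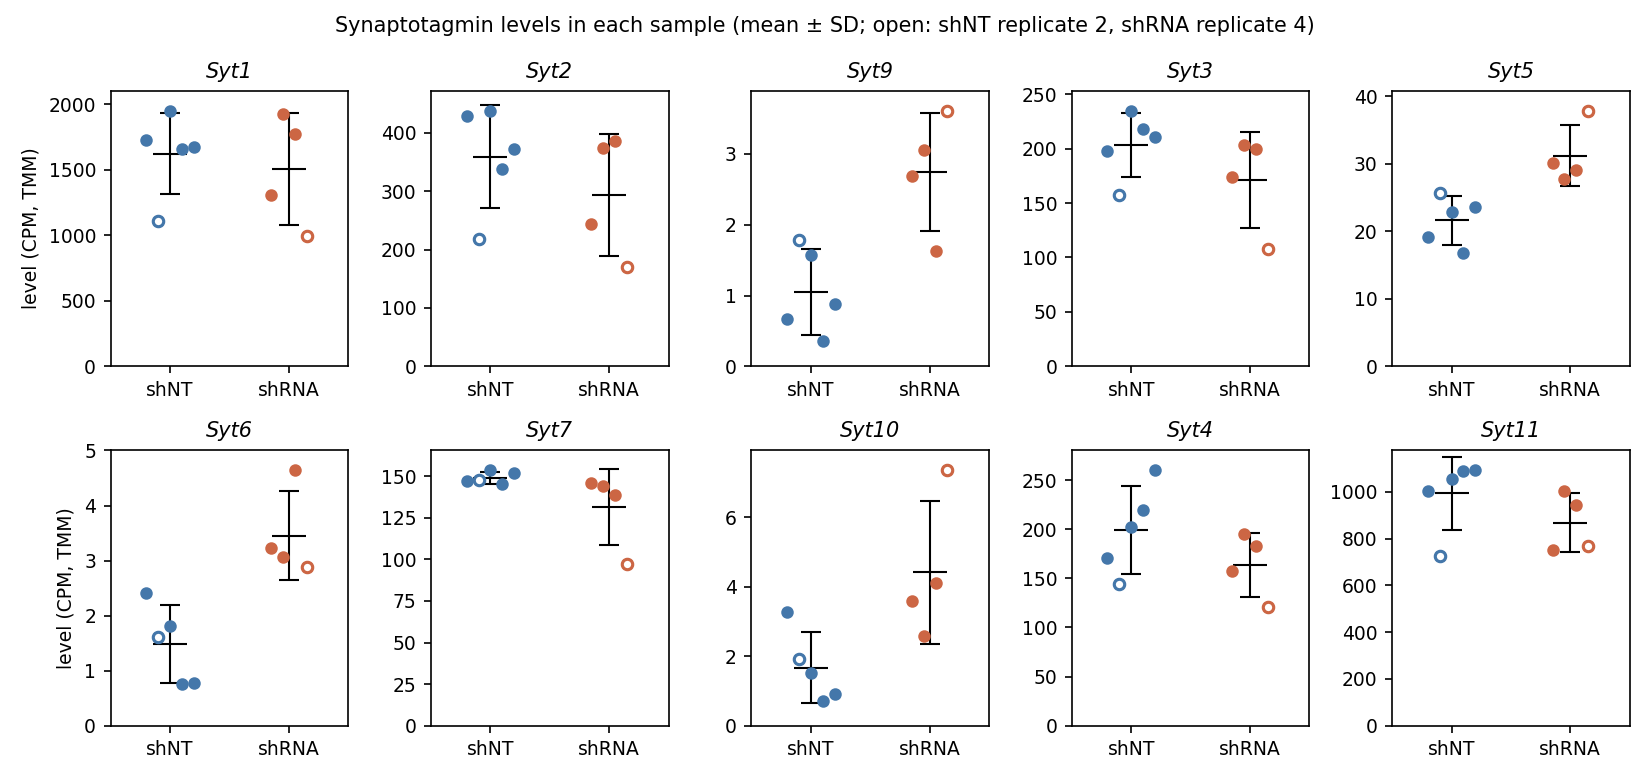
Levels of the 10 synaptotagmins (CPM normalized by TMM, axes from 0) in 5 shNT and 4 shRNA samples. Points are samples, bars are the mean ± SD, and open points are shNT replicate 2 and shRNA replicate 4, the sample of each group with the most reads outside exons. For Syt5 and Syt6 all shRNA points sit above all shNT points, and for Syt1, Syt2 and Syt3 the open points are the lowest of their group.

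Levels of different genes were compared per exonic kilobase (FPKM). The bases of Syt4, Syt6 and Syt7 that exons of other genes overlap were kept in the length, although reads on several genes were not counted. In shNT the order of the mean levels was Syt1 at 195 ± 37.2, Syt11 at 189.6 ± 29.6, Syt3 at 65.3 ± 9.38, Syt2 at 52.2 ± 12.9, Syt4 at 51.1 ± 11.4, Syt7 at 21.4 ± 0.505, Syt5 at 12.4 ± 2.06, Syt10 at 0.902 ± 0.553, Syt9 at 0.265 ± 0.153 and Syt6 at 0.256 ± 0.123 FPKM (SD, n = 5). The order in shRNA was identical, from 180.2 ± 51.1 FPKM for Syt1 to 0.599 ± 0.140 FPKM for Syt6 (SD, n = 4). The fast sensors thus held the first, the fourth and the ninth places.

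Several neighbours in that order were not separated. Syt1 was above Syt11 in 2 of 5 shNT and 3 of 4 shRNA samples, and Syt2 was above Syt4 in 2 of 5 and 2 of 4. Syt9 was above Syt6 in 3 of 5 and 3 of 4. Syt3 was above Syt2 within each of the 9 samples, and so was Syt10 above Syt9, although the ranges over the shNT samples overlapped in both pairs. The shNT ranges did not overlap between Syt11 and Syt3, Syt4 and Syt7, Syt7 and Syt5, or Syt5 and Syt10. With the length of the longest transcript in place of all merged exons, only Syt6 and Syt9 changed places. The shNT mean of Syt1 was then 337 FPKM and that of Syt11 198 FPKM, and Syt1 held 41.6% to 48.7% of the summed level per sample against 24.3% to 30.7% for Syt11. The levels of Syt1 and Syt11 were thus close with merged exons and apart with the longest transcript.

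**Figure D2:**
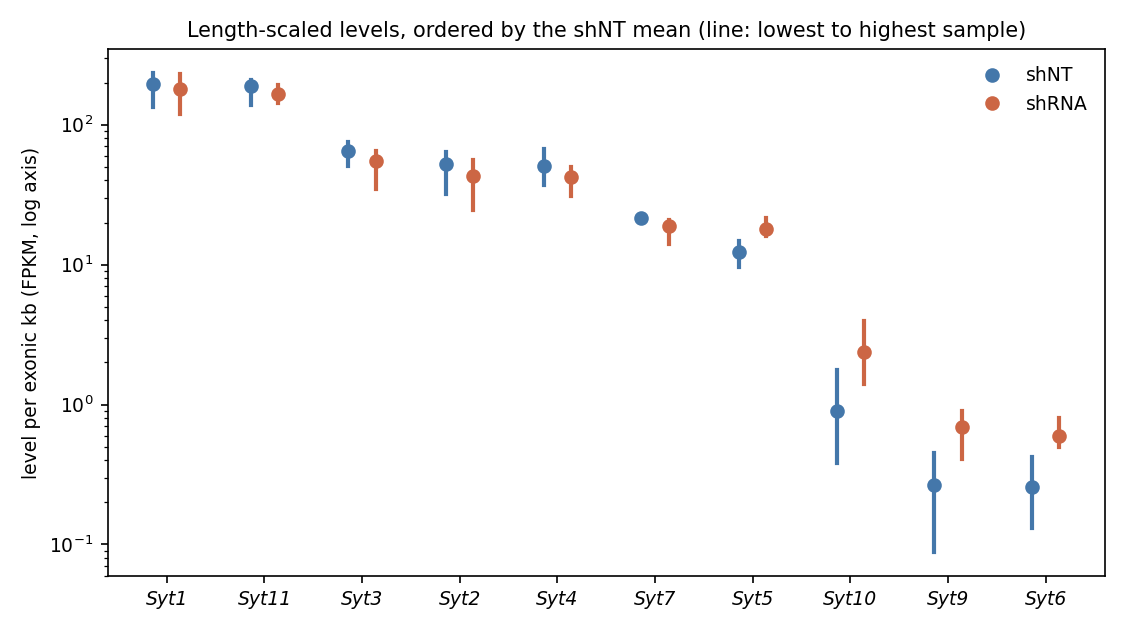
Length-scaled levels (FPKM, log axis) of the 10 synaptotagmins, ordered by the shNT mean. Points are group means of 5 shNT and 4 shRNA samples and lines run from the lowest to the highest sample. The first 7 genes lie between 12.4 and 195 FPKM in shNT, and Syt10, Syt9 and Syt6 lie below 1 FPKM.

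The fast sensors as a group made up a similar mean share of the summed length-scaled level (FPKM) of the 10 genes in both conditions. The share of Syt1, Syt2 and Syt9 was 44.7%, 38.6%, 44.9%, 40.5% and 40.2% in shNT and 40.8%, 45.3%, 44.9% and 36.6% in shRNA. The means were 41.8% ± 2.87 (SD, n = 5) and 41.9% ± 4.09 (SD, n = 4), a difference far inside the spread between replicates. Syt1 alone gave 33.0% and 33.8%, Syt2 8.78% and 7.91%, and Syt11 32.3% and 31.9%. With the longest transcript as the length the fast sensors held 51.6% and 51.9%, so the share depended on the gene model, and the group means again lay close together.

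The 4 members with positive log2 fold changes in these same samples were also summed, and most of their share came from Syt5. Their higher mean share in shRNA follows from that choice and is no further result. Syt5, Syt6, Syt9 and Syt10 together made up 2.21%, 3.85%, 2.21%, 1.66% and 2.27% of the summed level in shNT and 4.30%, 2.95%, 3.35% and 6.81% in shRNA. The means were 2.44% ± 0.825 (SD, n = 5) and 4.35% ± 1.73 (SD, n = 4), and the groups overlapped through shNT replicate 2. Syt5 alone gave 2.19% ± 0.728 (SD, n = 5) and 3.59% ± 1.33 (SD, n = 4), and Syt6, Syt9 and Syt10 together gave 0.254% ± 0.145 and 0.757% ± 0.412. The ratio of Syt2 to Syt1 in FPKM was 0.301, 0.239, 0.272, 0.247 and 0.269 in shNT and 0.226, 0.235, 0.263 and 0.207 in shRNA. It averaged 0.266 ± 0.0244 (SD, n = 5) and 0.233 ± 0.0236 (SD, n = 4), and of the shRNA samples replicate 3 alone lay within the shNT range. With the longest transcripts the ratio averaged 0.154 and 0.135.

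Across all genes the test called 1.74% higher (262 genes) and 0.0133% lower (2 genes) in shRNA, 1.75% in all, at an FDR under 0.05 and at least 1.5-fold, and 0 of the 10 synaptotagmins were called in either direction by edgeR's quasi-likelihood test. At an unadjusted p under 0.05 there were 4 of 10, all higher (Syt5, Syt6, Syt9 and Syt10), where 34.1% of all genes passed in either direction and 20.7% with a higher level. By other tools at the same thresholds, 3 of 10 (Syt6, Syt9 and Syt10) were called higher. The edgeR likelihood ratio test gave them FDRs of 0.0247, 0.0265 and 0.0296, where it called 11.2% of all genes higher and 3.6% lower. DESeq2 gave adjusted p-values of 0.0207, 0.0289 and 0.0246, with 10.2% of all genes called higher and 5.53% lower, and limma voom gave 0.00274, 0.0157 and 0.00562, with 15.3% and 4.1%. At an FDR under 0.1 and at least 1.5-fold the quasi-likelihood test would hold the same 3 genes and 12.7% of all genes as higher. Without shNT replicate 1 the quasi-likelihood test also called Syt6 (FDR 0.0447) and Syt10 (FDR 0.0406). The calls on these scarce genes thus depended on the tool and on 1 sample.

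Groups that did not overlap were seen for 2 of 10 synaptotagmins, Syt5 and Syt6, both higher in shRNA, and for 8.97% of all genes with shRNA higher and 6.68% with shRNA lower. Of the fast sensors 1 of 3 had a positive log2 fold change (Syt9) and the median was -0.11, and of the 7 others 3 were positive (Syt5, Syt6 and Syt10) and the median was -0.18. Over the 10 genes 4 were positive with a median of -0.15, and over all 15069 genes 57.9% were positive with a median of 0.11. Fast sensors and the others therefore did not fall on different sides: each group held scarce genes with positive and abundant genes with negative values.

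The sign of the log2 fold change followed the level, for the synaptotagmins and for genes at large. Among the 4126 tested genes with a mean under 5 CPM, where Syt6, Syt9 and Syt10 belong, 75.7% were positive, the median log2 fold change was 0.53 and 46.3% were at least 1.5-fold higher in shRNA. Among the 6527 genes from 5 to 50 CPM, with Syt5, 61.5% were positive (median 0.15). From 50 to 250 CPM, with Syt3, Syt4 and Syt7, 38.7% of 3693 genes were positive (median -0.12). At 250 CPM and above, with Syt1, Syt2 and Syt11, 22.4% of 723 genes were positive (median -0.27). All 10 synaptotagmins had the sign of most genes in their band.

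**Figure D3:**
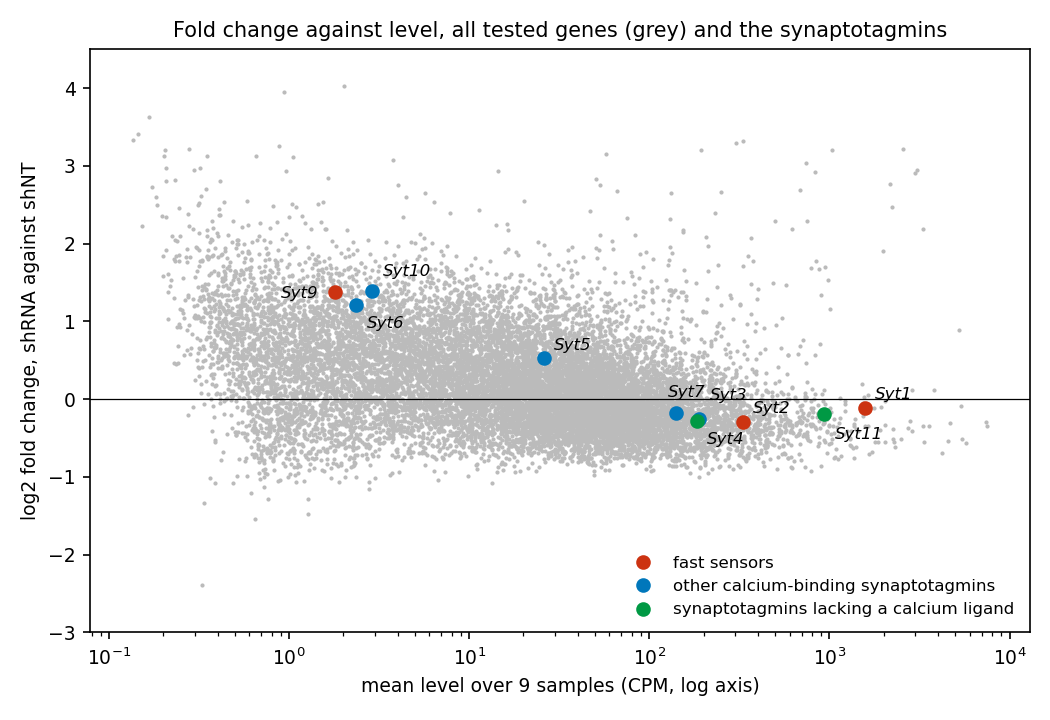
Log2 fold change of shRNA against shNT (positive is higher in shRNA) against the mean level over 9 samples (CPM, log axis). Grey points are the 15069 tested genes and coloured points are the synaptotagmins by group. Syt6, Syt9 and Syt10 lie near the left at log2 values of 1.22 to 1.40 and the 6 most abundant members lie between -0.29 and -0.11.

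Of the 6 synaptotagmins above 50 CPM, all but Syt7 divided the samples across both conditions. In shNT replicate 2, shRNA replicate 1 and shRNA replicate 4, Syt1 measured 998 to 1311 CPM against 1660.5 to 1948 CPM in the other 6 samples. Syt2 measured 170.1 to 244 CPM against 338 to 437 CPM, and Syt3 108 to 174 CPM against 198 to 235 CPM. Syt4 and Syt11 were divided in the same way, at 120.5 to 158 against 171 to 260.1 CPM and at 724 to 768 against 945 to 1093 CPM. Syt7 overlapped, at 97.3 to 147 against 138 to 154 CPM. Thus 5 of the 10 lay below all others in those 3 samples and 0 lay above, where 10.9% of all tested genes lay below and 9.45% above. Those percentages are over genes of all levels and were not matched to the level of these 5. The 5 also moved together across the samples (r = 0.78 to 0.97), so they are not separate observations. The 3 samples were chosen by their reads outside exons, and 2 of them are shRNA. The mean share of such reads was 12.1% in shNT and 18% in shRNA.

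When the fit also held the percent of reads outside exons as a term, the log2 fold changes were 0.25 for Syt1, 0.17 for Syt2, 0.06 for Syt3, -0.01 for Syt4, 0.02 for Syt11 and -0.06 for Syt7. The other values were positive as before, at 0.35 for Syt5, 1.30 for Syt6, 1.04 for Syt9 and 0.93 for Syt10 (edgeR quasi-likelihood test). Without shRNA replicate 4, Syt1 was at 0.03, Syt2 at -0.11, Syt3 at -0.09, Syt5 at 0.40, Syt6 at 1.27 and Syt9 at 1.19. The part of the reads outside exons in these values was not tested beyond these fits.

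**Figure D4:**
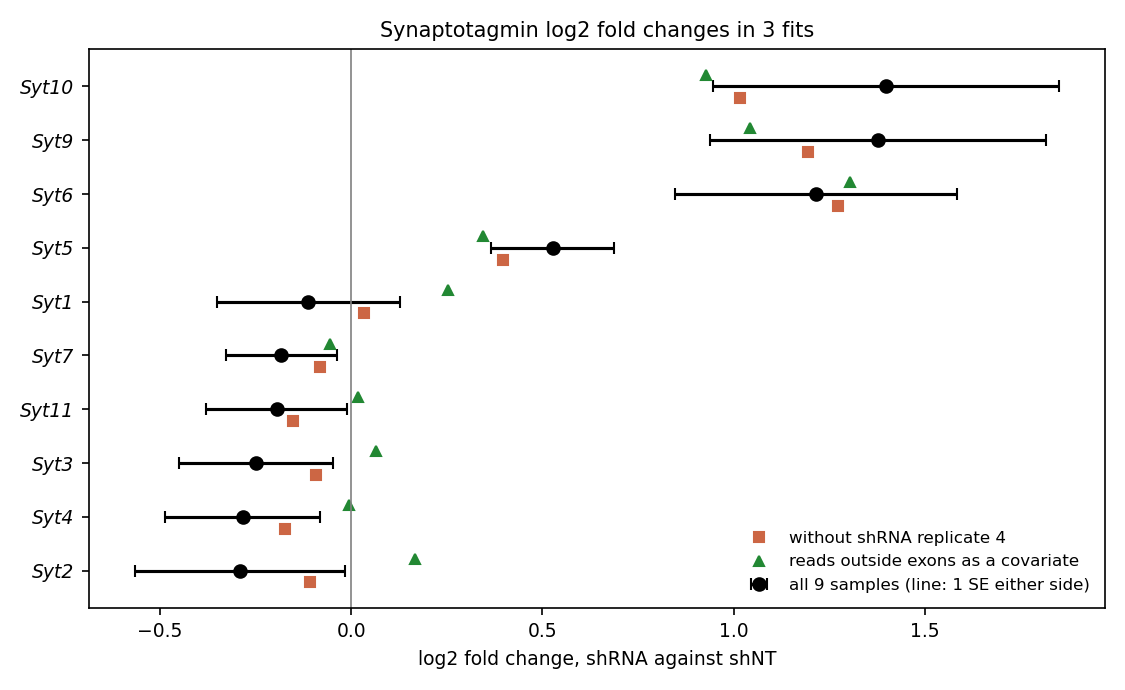
Log2 fold changes of the 10 synaptotagmins from all 9 samples (black, lines are 1 SE either side), without shRNA replicate 4 (squares) and with the percent of reads outside exons as a term of the fit (triangles). Syt5, Syt6, Syt9 and Syt10 are positive in each, and Syt1, Syt2, Syt3 and Syt11 lie at 0.25, 0.17, 0.06 and 0.02 with that term.

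**Figure D5:**
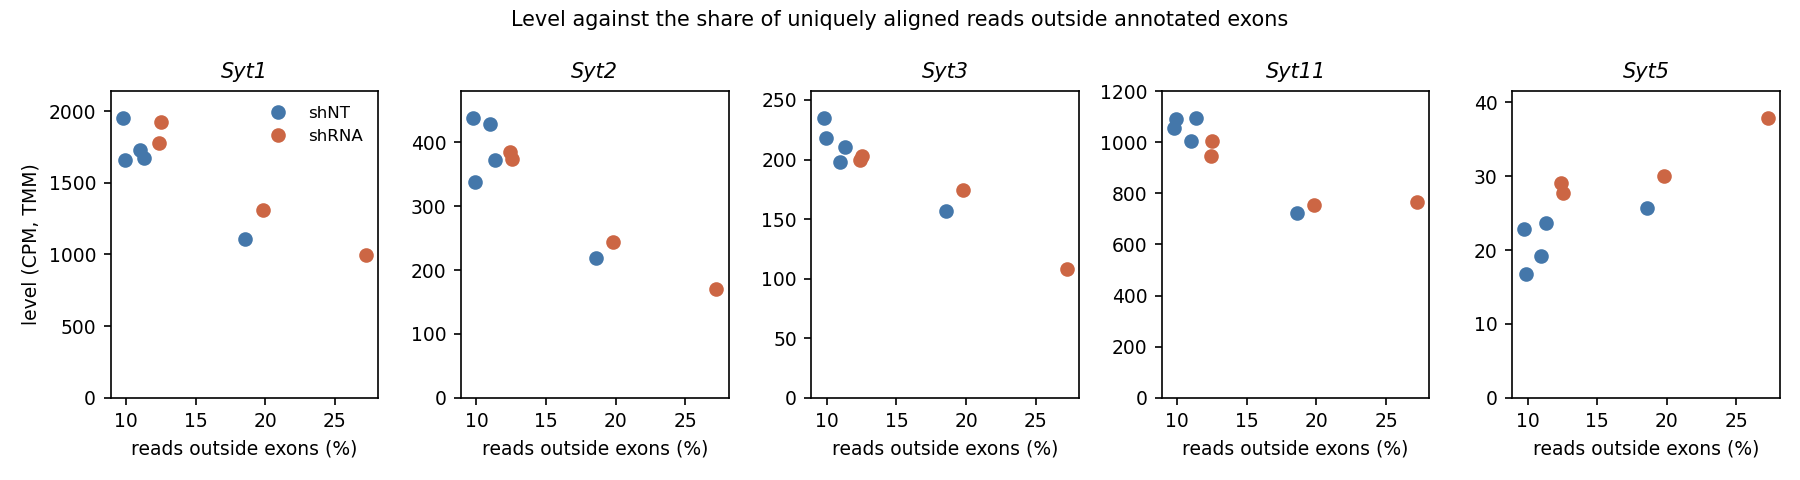
Levels of Syt1, Syt2, Syt3, Syt11 and Syt5 (CPM, axes from 0) against the percent of uniquely aligned reads outside annotated exons, 1 point per sample. The 3 samples above 18% have the lowest Syt1, Syt2, Syt3 and Syt11, whichever their condition, and Syt5 is highest in shRNA replicate 4 at 27.2%.

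Markers of PV INs and of other cells are given beside these values. The summed level of 8 PV IN markers was 4302 to 7041 CPM in shNT and 2429 to 5976 CPM in shRNA, and all 8 had negative log2 fold changes. The quasi-likelihood test called 0 of them (2 at an unadjusted p under 0.05), while the likelihood ratio test, DESeq2 and limma voom each called 1 lower, Pvalb, where they called 3.6%, 5.53% and 4.1% of all genes lower. The 6 markers of CA3 and CA2 pyramidal neurons summed to 215 to 459 CPM and 554 to 694 CPM, with 5 positive. The quasi-likelihood test called 1 of them higher (Grik4) against 1.74% of all genes, and the other tools called 4, 3 and 5 of the 6 higher, against 11.2%, 10.2% and 15.3%. The 5 astrocyte markers summed to 295 to 536 CPM and 474 to 2893 CPM, where the highest without shRNA replicate 4 was 598 CPM. The 4 markers of DG granule cells summed to 61.7 to 111 and 117 to 170.0 CPM, those of oligodendrocytes to 655 to 2190 and 1253 to 2745 CPM, those of precursors to at most 13.6 and to 16.2 to 31.3 CPM (Pdgfra was called by the quasi-likelihood test), those of microglia to 24.1 to 54.1 and 51.9 to 61.8 CPM, those of endothelial cells to 38.3 to 136 and 22.6 to 347 CPM (at most 58.7 CPM without shRNA replicate 4), and those of other interneurons to 482 to 872 and 261 to 652 CPM. Without that sample the median log2 fold change of the endothelial markers turned from 0.47 to -0.93 and that of the astrocyte markers went from 1.63 to 0.37. The summed ranges overlapped between groups for PV INs, other interneurons, astrocytes, oligodendrocytes, microglia and endothelial cells. Of 41 markers 0 had a count of 0 in any sample. The part of other cells in the levels of Syt5, Syt6, Syt9 and Syt10 was not tested.

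Pvalb was set beside the synaptotagmins because both Pvalb and Syt2 mark fast-spiking terminals. Across the 9 samples no relation of Syt2 with Pvalb was detected, with Pearson's r = 0.32 (exact permutation p = 0.393, adjusted 0.414) and Spearman's rho = -0.03 (exact permutation p = 0.948, adjusted 0.948). Without the 2 samples farthest from the Pvalb median, shRNA replicate 4 and shNT replicate 5, r was -0.53, and it was -0.65 over the 6 samples of the larger name set. The adjusted values are Benjamini-Hochberg over 20 relations computed, those of each member with Pvalb and with the share of reads outside exons. Many of the latter had small p-values, which lowers the adjusted values given here. An adjustment over the relations with Pvalb alone was not made. The ratio of Syt2 to Pvalb in CPM was 0.400 ± 0.197 in shNT (SD, n = 5) and 0.572 ± 0.166 in shRNA (SD, n = 4).

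Syt10 and Syt6 ran opposite to Pvalb and Syt7 ran with it. For Syt10, r was -0.88 (exact permutation p = 0.00212, adjusted 0.0106) and rho -0.85 (exact permutation p = 0.00607, adjusted 0.0304), and r was -0.75 without those farthest samples and -0.58 over the larger name set. For Syt6, r was -0.79 (exact permutation p = 0.0110, adjusted 0.0244) and rho -0.78 (exact permutation p = 0.0172, adjusted 0.0535), and r was -0.87 and -0.83 in the same smaller sets. For Syt7, r was 0.77 (exact permutation p = 0.00681, adjusted 0.0195) and rho 0.80 (exact permutation p = 0.0138, adjusted 0.0535), and r was 0.43 and 0.56 in those sets. The adjusted p of r was 0.0672 to 0.529 for the other 7 members. Pvalb itself was lower in shRNA on average, so these relations and the condition cannot be told apart.

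The genes whose levels followed Syt2 most closely, among 9495 genes with a mean of at least 10 CPM, were Slc38a1 (r = 0.99), Zbtb22 (0.98), Larp1 (0.98), Mtap4 (0.98) and 3830431G21Rik (0.98) over 9 samples. Syt1 was 26th in that order (r = 0.97), Gad1 140th (0.94), Vamp1 2121st (0.72), Cplx1 2540th (0.66) and Pvalb 4748th (0.32). The genes most like Syt1 were Ttc39b (r = 0.997), Slc39a3 (0.99), Gpi1 (0.99), Sv2a (0.99) and Ric3 (0.99), of which Sv2a is a vesicle protein that binds synaptotagmin 1. Between members r was 0.91 to 0.97 among Syt1, Syt2 and Syt3. Other abundant pairs reached 0.87, for Syt3 with Syt7, Syt4 with Syt11 and Syt1 with Syt11. Lower pairs among them were Syt1 with Syt4 (0.79), Syt1 with Syt7 (0.65) and Syt7 with Syt11 (0.45, the lowest). For the less abundant members r was 0.92 for Syt5 with Syt9 and 0.88 for Syt6 with Syt10. All of these are descriptions over 9 samples, and the genes of a sample share its depth and its reads outside exons.

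The other proteins with C2 domains gave a background for the 10. Of 19 listed, 16 were tested (Syt8, Sytl1 and Sytl3 were not), 0 were called by the quasi-likelihood test and 7 of 16 passed an unadjusted p of 0.05, against 34.1% of all genes. The likelihood ratio test called 3 higher (11.2% of all genes), DESeq2 3 (10.2%) and limma voom 6 (15.3%). Of the 16, 11 were positive and the median log2 fold change was 0.44. Among those above 10 CPM the largest values were those of Esyt2, a tether of the endoplasmic reticulum to the plasma membrane (28.1 ± 7.94 to 46.5 ± 21.7 CPM, log2 0.73, FDR 0.104), Syt16 (15.2 ± 3.84 to 24.5 ± 4.86 CPM, log2 0.68, FDR 0.0686), Sytl2 (21.6 to 32 CPM, log2 0.57, FDR 0.111) and Syt17 (19.9 to 24.8 CPM, log2 0.31, FDR 0.304). Without shRNA replicate 4, Esyt2 was at 0.34, below Sytl2 at 0.72 and Syt16 at 0.54. The abundant Syt13 (441 and 393 CPM) and Rph3a (462 and 397 CPM), named after their values were seen, had negative values like the abundant synaptotagmins.

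The partners of synaptotagmins in release had values of both signs. Of 20 listed, all were tested, 11 were positive and 9 negative, and the median log2 fold change was 0.20. Sv2b, a synaptic vesicle glycoprotein that binds synaptotagmin, was the only 1 called by the quasi-likelihood test, at 34.0 to 79.7 CPM in shNT and 96.4 to 167 CPM in shRNA. The means of 55.7 ± 18.6 CPM (SD, n = 5) and 139 ± 30.0 CPM (SD, n = 4) differed by a log2 fold change of 1.31 (SE 0.25, FDR 0.0403). The call of Sv2b was lost without shNT replicate 3 (FDR 0.0744), 4 (0.155) or 5 (0.169) and without shRNA replicate 1 (0.0860), 3 (0.121) or 4 (0.0515). It was also lost when samples were scaled by library size only (0.0708), with the percent of reads outside exons as a term (0.0785) and over the larger name set alone (0.277).

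The other partners with the largest values above 10 CPM were Ston2, an endocytic adaptor for synaptotagmin (6.37 ± 7.09 to 28.9 ± 15.4 CPM, log2 2.17, FDR 0.0734), Unc13b, a priming factor (10.7 to 20.2 CPM, log2 0.92, FDR 0.0630), and Cacna1b, the channel of N-type calcium currents (18.9 to 33.5 CPM, log2 0.83, FDR 0.0766). A total of 12 of 20 partners passed an unadjusted p of 0.05, against 34.1% of all genes. The likelihood ratio test called 7 higher (11.2% of all genes), DESeq2 7 higher (10.2%) and 2 lower, Snap25 and Cplx1 (5.53%), and limma voom 10 higher (15.3%) and 1 lower (4.1%). Groups did not overlap for 5 with shRNA higher (Sv2b, Sv2c, Unc13a, Unc13b and Unc13c, against 8.97% of all genes) and 4 with shRNA lower (Snap25, Vamp1, Vamp2 and Cplx1, against 6.68%), names that were chosen after their values were seen. The 4 lower ones are the SNARE proteins and complexin on which fast release runs: Snap25 averaged 6708 and 4555 CPM (log2 -0.56, FDR 0.119), Vamp1 1167 and 719.7 CPM (log2 -0.70, FDR 0.131), Vamp2 2589.5 and 1818 CPM (log2 -0.51, FDR 0.0946) and Cplx1 5064 and 3121 CPM (log2 -0.70, FDR 0.106). For Syt1 and Syt2, whose proteins act on that complex, the groups overlapped and the log2 values were -0.11 and -0.29.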

How the data were processed

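RNA sequencing was of ribosome-associated RNA from 5 shNT and 4 shRNA samples. The authors aligned reads to mm9 (STAR) and used HTSeq 0.6.0 to count the uniquely aligned ones on each gene, whichever the strand, and these deposited counts were not normalized. Identifiers were named from GENCODE for mm9 (37205 of 37620). In R 4.3.3, genes that reached 1 CPM in any sample were kept (15069, with 22551 removed), normalized by TMM and compared with edgeR 4.0.16 (quasi-likelihood test, condition as the only term, Benjamini-Hochberg adjustment over all tested genes, FDR under 0.05 and at least 1.5-fold). Log2 levels used a prior count of 2. FPKM used merged exons. Single genes were compared by exact two-sided permutation of log2 levels over 126 splits. DESeq2 1.42.0, limma 3.58.1 voom, other scalings, filters, terms and left-out samples were alternatives. Only the quasi-likelihood fit was tried on simulated data. Changes were placed there only in genes more abundant than Syt6, Syt9 and Syt10, so that trial does not cover those members.

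The members and lists were chosen with earlier results of these data known. Besides the 10 members, partner and C2 lists were given as counts and by the called genes plus the 4 with the largest absolute log2 fold change at a mean of at least 10 CPM, and the 5 genes most like Syt1 and Syt2 by Pearson correlation. Relations of the members with the share of reads outside exons are given as ranges and not as correlations, because the samples fall into a cluster of 6 and a cluster of 3. Nothing states whether the 2 sets of sample names (6 and 3 samples) are batches, and replicates are separate pools. Reads on no gene or on several were left out, and ambiguous reads came to 1.36% to 1.78% of uniquely aligned reads. At these depths counting error is small for all members except Syt6, Syt9 and Syt10. Sequence for Syt4 is not printed.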

Additional observations from a re-analysis of the deposited data

Results flagged for a closer look

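A gap test for a lone sample (Dixon's, at its 95% level) was run on 30 groups of values and marked 3, where about 1.5 would be marked by chance. Syt7 in shRNA replicate 4 was at 97.3 CPM and the other 3 shRNA samples were at 138 to 146 CPM. Syt11 in shNT replicate 2 was at 724 CPM and the other 4 shNT samples were at 1004 to 1093 CPM. The share of uniquely aligned reads outside exons in shNT replicate 2 was 18.6%, and the other shNT samples were at 9.76% to 11.3%. The part of these reads in the level of Syt11 was not tested.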

How the results depend on the processing

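The count of synaptotagmins called was 0 in the reported fit, 3 by the likelihood ratio test, 3 by DESeq2 and 3 by limma voom (Syt6, Syt9 and Syt10 in each), and 0 to 2 with 1 sample left out (2 without shNT replicate 1). The 262 genes called higher became 1688 by the likelihood ratio test, 1532 by DESeq2, 2301 by limma voom, 501 with no filter on low counts, 0 with library size only, 0 within the larger set of sample names and 0 with reads outside exons as a covariate, and 0 to 1007 with 1 sample left out. Leaving out any of shNT replicates 3 to 5, or shRNA replicate 1 or replicate 3, gave that 0. The 2 genes called lower became 542, 833 and 618 by those 3 tools, 14 with no filter, 8 with at least 1 CPM in at least 4 samples, 1 with DESeq2 size factors, 1 with the set of sample names as a term, 0 with library size only, 0 within the larger set of names, 0 with the covariate and 0 to 410 with 1 sample left out. Leaving out shNT replicate 2 and shRNA replicate 4 together, chosen after seeing the data, gave 678 higher. With the replicate number as a block, 29 genes were called higher and 0 lower, with 0 synaptotagmins, and Sv2b had an FDR of 0.160. The numbers did not pair the samples, since the correlations of same-numbered deviations were -0.27, -0.64, 0.49 and -0.18 and shRNA replicate 3 alone correlated best with its own number. shNT replicate 5 has no partner and adds nothing to that fit. The direction of Syt5, Syt6, Syt7, Syt9 and Syt10 was kept in every alternative run. Syt1 turned to 0.063 with limma voom, 0.041 within the larger set of names, 0.25 with the covariate and 0.034 without shRNA replicate 4 (range with 1 sample left out -0.27 to 0.034), Syt2 to 0.011 and 0.17 with limma voom and the covariate, Syt3 to 0.064 and Syt11 to 0.019 with the covariate, and Syt4 to 0.019 within the larger set of names. Corrected for a trend with exonic length, Syt1 was at -0.56, Syt2 at -0.67, Syt7 at -0.57 and Syt11 at -0.48. The cause was not tested. With the longest transcript the fast sensors' share was 51.6% in shNT and 51.9% in shRNA. The median log2 fold change of all genes was 0.11, against 0.17 with library size only and 0.07 with DESeq2 size factors. Counts of 7 to 97 reads limit Syt6 and Syt9, and counts of 14 to 163 reads limit Syt10.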
